A study of Homo sapiens with 22 samples.

Results

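The genes of major histocompatibility complex (MHC) class I antigen presentation described here were B2M, HLA-B, HLA-C, HLA-E, HLA-F, TAP1, TAP2, TAPBP, PSMB8 and PSMB9. They were chosen by name, and every probeset annotated to 1 of them and to no other gene was used, which gave 26 of the 54675 probesets of the array and 10 of the 19775 genes that had such a probeset. Signal was compared between neuroblastic and MYCN-low adherent lines and between hypoxia and normoxia. MHC class I molecules carry peptides cut from a cell's own proteins to the cell surface, where cytotoxic T cells and natural killer cells read them. Each molecule pairs a heavy chain with β2-microglobulin, the TAP transporter pumps peptides into the endoplasmic reticulum, tapasin helps to load them, and the immunoproteasome, which interferon induces, cuts peptides that suit the groove. Low class I display is a known property of many neuroblastoma cells, and interferon-γ is known to raise it.

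RNA from 11 neuroblastoma cultures was hybridised to 22 Affymetrix arrays, 1 hypoxic and 1 normoxic array per culture. Cells were held for 18 h at 1% oxygen or at 20% oxygen in RPMI medium with serum. The 6 neuroblastic lines were GI-LI-N, IMR-32, SK-N-SH, LAN-1, SK-N-BE2(C) and SK-N-F1, and the 5 adherent cultures were ACN, SHEP-2, GI-ME-N and SHEP21N with and without MYCN overexpression. SHEP21N carries a MYCN transgene that tetracycline shuts off, and the cultures without overexpression received it at 50 ng/mL, so that drug and transgene state cannot be told apart. All were established lines. The SHEP lines came from a research laboratory and the rest from a cell line collection, so source and line overlap. Each line gave 1 array per condition, so the spread in every test below is the spread between lines. SHEP-2 and both SHEP21N cultures are relatives and not independent lines. In normoxia the MYCN signal ran from 5788 (SK-N-F1) to 55612.5 (SK-N-BE2(C)) in the neuroblastic lines. It ran from 5.43 (GI-ME-N) to 55.3 (SHEP-2) in the adherent cultures, so line set and MYCN signal cannot be told apart. In a bulk sample fewer cells of a type and less RNA per cell cannot be told apart.

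Several arrays went against their labels or stood apart. Arrays of SK-N-SH, IMR-32 and GI-LI-N correlated across these lines at r = 0.890 to 0.906, close to the median of 0.903 between the arrays of 1 line, and above the 0.822 to 0.873 of other pairs of neuroblastic lines. That last range also lay inside the 0.820 to 0.923 between arrays of 1 line, so r alone does not settle identity. The MYCN signal of SK-N-SH in normoxia was 33504, although SK-N-SH is known as a line without MYCN amplification. The normoxic array of SHEP21N with MYCN overexpression had a 3'/5' signal ratio of 67.3 for GAPDH and 94.0 for ACTB. This ratio rises with RNA degradation and was at most 1.4 and 5.05 on the other arrays. The 5.05 was that of SHEP21N without overexpression in normoxia. For ACTB both arrays lay above the maximum that the methods state for all samples. The MYCN probeset read 6.0 with MYCN overexpression and 12.7 without it in hypoxia, and 19.0 with and 6.0 without it in normoxia, so the labelled overexpression was not seen. Where that probeset lies relative to the transgene's message is not given in the sources used here. The lowest signal on each SHEP21N array was 3.30, against at most 0.80 elsewhere, and its values had 1 decimal, so processing and line cannot be told apart for these arrays. Array medians were 69.4 to 133.6, and each signal was divided by its array's median before testing. Of the neuroblastic markers 11 of 12 were measured, of which 10 were higher in the neuroblastic lines in hypoxia and 9 in normoxia. Over all 54675 probesets 2194 and 2131 were higher. In each condition 7 of 12 mesenchymal markers were lower, as were 2.26% of all probesets in hypoxia and 2.21% in normoxia. MYCN is among the neuroblastic markers, and SK-N-SH was placed by its MYCN signal. The marker counts are therefore not an independent check of the line sets. None of 11 leukocyte and 6 endothelial markers passed in either condition. The summed leukocyte signal was 363 to 858 on neuroblastic and 382 to 1358 on adherent arrays, and the endothelial sum was 143 to 481 and 289 to 799.

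All members but B2M, which lies on chromosome 15, are in the MHC region of chromosome 6 (GRCh38.p14), between HLA-F at chr6:29723434-29738532 and TAPBP at chr6:33299694-33314078. TAP2 (chr6:32821831-32838739), PSMB8 (chr6:32840717-32844679), TAP1 (chr6:32845209-32853704) and PSMB9 (chr6:32854192-32859851) lie in that order, and TAP1 and PSMB9 start next to each other on opposite strands. RefSeq promoter windows, 250 bases before to 50 after the annotated start, were at hand for 9 of the 10 members, and that of HLA-E was not analysed here. The 9 genes had 11 windows. The core of an interferon-response element, TTTCNNTT on either strand, lay in a window of 8 of those 9 genes (all but PSMB9). Per window this was 8 of 11, against 22.8% of 35116 promoter windows. The longer element, TTTCNNTT followed directly by TC, contains the shorter motif. It lay in 6 of the 9 genes (B2M, HLA-F, PSMB8, TAP1, TAP2 and TAPBP) and 6 of 11 windows, against 3.57% of all windows. A CCAAT box was found in 6 of 9 genes and 6 of 11 windows (34.6% of all windows). The cyclic-AMP-response core TGACG was in 6 of 9 genes and 6 of 11 windows (24.6%). The hypoxia-response core ACGTG was in 1 of 9 genes, PSMB9, and 1 of 11 windows (21.4%). The windows of HLA-B, TAP1, TAP2, PSMB8 and B2M are shown because these genes span a heavy chain, both transporter subunits, an immunoproteasome subunit and the light chain, whose levels are set against each other in what follows. Capitals mark each TTTCNNTT match on either strand. The windows are chr6:31357130-31357429 (minus strand) for HLA-B, chr6:32853655-32853954 (minus strand) for TAP1, chr6:32838690-32838989 (minus strand) for TAP2, chr6:32843998-32844297 (minus strand) for PSMB8 and chr15:44711267-44711566 (plus strand) for B2M. TAP1 and PSMB8 had more than 1 window, and the one with a match is shown. In the HLA-B window the first match began 155 bases before the start, in B2M 142 and in TAP2 62. A match in these letters is a description of the sequence and does not show that a factor was bound.
HLA-B: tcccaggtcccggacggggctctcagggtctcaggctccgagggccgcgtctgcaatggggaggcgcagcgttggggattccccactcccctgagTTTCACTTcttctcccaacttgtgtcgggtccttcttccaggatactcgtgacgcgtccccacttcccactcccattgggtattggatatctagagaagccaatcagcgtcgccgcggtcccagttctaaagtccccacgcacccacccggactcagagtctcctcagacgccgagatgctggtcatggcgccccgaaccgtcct
TAP1: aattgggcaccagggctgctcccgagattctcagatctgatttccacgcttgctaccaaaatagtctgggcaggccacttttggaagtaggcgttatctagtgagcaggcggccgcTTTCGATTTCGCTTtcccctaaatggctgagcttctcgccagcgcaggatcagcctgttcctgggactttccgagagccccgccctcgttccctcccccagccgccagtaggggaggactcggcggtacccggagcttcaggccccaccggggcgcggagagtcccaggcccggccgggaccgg
TAP2: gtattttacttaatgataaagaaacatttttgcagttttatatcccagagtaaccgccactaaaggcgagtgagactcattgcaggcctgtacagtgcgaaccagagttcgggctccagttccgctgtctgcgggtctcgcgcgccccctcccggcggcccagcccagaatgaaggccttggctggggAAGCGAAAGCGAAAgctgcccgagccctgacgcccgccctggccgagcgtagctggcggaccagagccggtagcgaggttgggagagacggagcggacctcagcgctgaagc
PSMB8: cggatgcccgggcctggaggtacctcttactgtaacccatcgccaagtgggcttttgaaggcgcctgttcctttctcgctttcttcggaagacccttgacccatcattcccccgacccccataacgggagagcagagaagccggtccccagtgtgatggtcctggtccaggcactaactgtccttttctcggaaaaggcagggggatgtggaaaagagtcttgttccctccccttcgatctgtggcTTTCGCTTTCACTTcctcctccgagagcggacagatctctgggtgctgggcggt
B2M: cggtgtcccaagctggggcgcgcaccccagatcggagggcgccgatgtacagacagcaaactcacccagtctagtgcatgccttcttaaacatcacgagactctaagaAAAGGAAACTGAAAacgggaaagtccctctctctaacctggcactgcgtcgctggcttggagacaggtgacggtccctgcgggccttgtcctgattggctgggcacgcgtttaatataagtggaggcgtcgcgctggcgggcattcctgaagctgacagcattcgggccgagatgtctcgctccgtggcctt

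Signal of all 10 members at the brightest probeset averaged lower in the neuroblastic lines, in normoxia by 1.43-fold for B2M, the light chain, and by 2.76-fold (TAPBP) to 58.1-fold (PSMB9) for the others. The ratio of PSMB9 is set against neuroblastic signals under 11 in 5 of 6 lines, and with signals below 50 set to 50 its log2 difference was -3.42 in place of -5.86. Over all 26 probesets the median log2 difference, neuroblastic minus adherent, was -2.58 in hypoxia and -2.17 in normoxia, against 0.02 and 0.04 over all probesets. The difference was negative for 26 of 26 probesets in hypoxia and 24 of 26 in normoxia. In hypoxia 6 of 26 passed an adjusted p of 0.05 as lower (2.26% of all probesets did), and in normoxia 5 of 26 (2.21%), by limma with Benjamini-Hochberg adjustment over all 54675 probesets, and none passed as higher. Over all probesets 2194 passed as higher and 1235 as lower in hypoxia, and 2131 and 1206 in normoxia, a split that was 1733 to 1634 and 1575 to 1644 with signals as deposited. At an unadjusted p below 0.05, 18 were lower in hypoxia (9.94% of all probesets) and 16 in normoxia (9.93%). At each gene's brightest probeset, HLA-E and PSMB9 passed in hypoxia and TAP1 and PSMB9 in normoxia. These calls treat related lines as independent. With SHEP-2 and both SHEP21N cultures averaged into 1 line, or SK-N-SH averaged with IMR-32 and GI-LI-N, none of the 26 passed in either condition, while each member's brightest probeset remained negative. The share of all probesets that passed as lower was then 0.706% in hypoxia and 0.717% in normoxia with the first averaging, and 0.889% and 0.766% with the second.

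**Figure D1:**
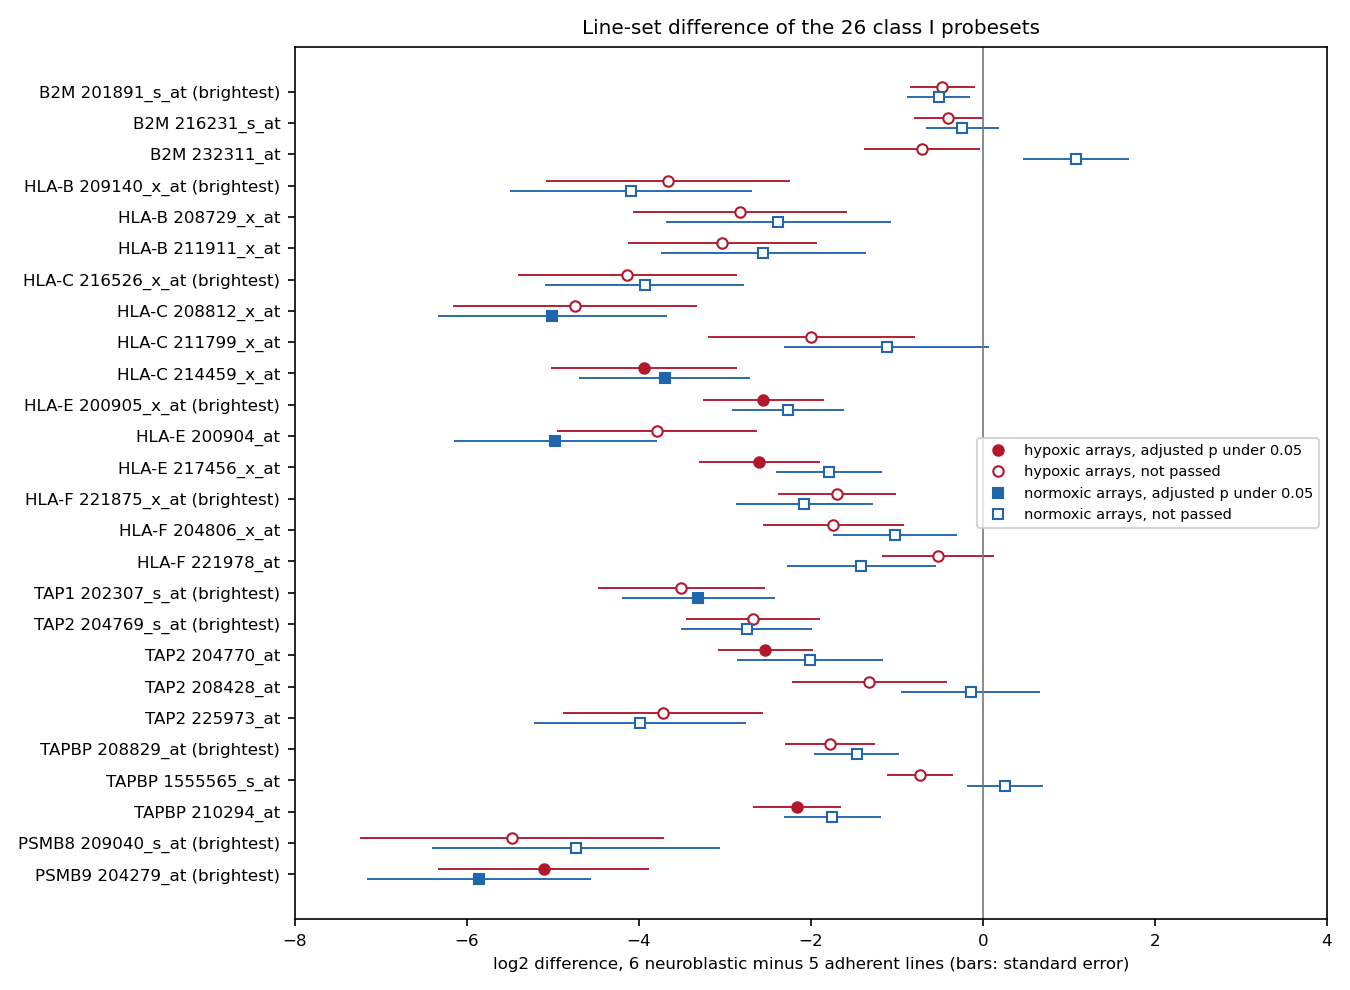
Log2 difference in signal, neuroblastic minus adherent lines, for each of the 26 probesets, on hypoxic (red) and normoxic (blue) arrays, with standard errors as bars and filled points where the limma adjusted p was under 0.05. Apart from 2 normoxic points, 1 for B2M and 1 for TAPBP, all lie below 0, and PSMB9 passed on both sets of arrays.

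HLA-B encodes a classical class I heavy chain. In hypoxia its signal ran from 13.6 in IMR-32 to 1966 in SK-N-F1 over the neuroblastic lines (median 251), against 4535 in SHEP21N with MYCN overexpression, 5285 in SHEP21N without it, 13103 in SHEP-2, 3338 in ACN and 87.6 in GI-ME-N. In normoxia the neuroblastic lines spanned 6.49 (SK-N-SH) to 911 (SK-N-F1) with a median of 153, against 2710.3 in SHEP21N with MYCN overexpression, 3103 in SHEP21N without it, 9409.5 in SHEP-2, 2815 in ACN and 84.3 in GI-ME-N. Thus GI-ME-N lay inside the neuroblastic range in both conditions while the other adherent cultures lay above every neuroblastic line. The difference was -3.67 (SE 1.42, limma adjusted p = 0.143) in hypoxia and -4.09 (SE 1.41, limma adjusted p = 0.105) in normoxia, so a 12.7-fold and a 17.1-fold lower mean did not pass.

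HLA-C encodes the other classical heavy chain in the set and is also a ligand for killer-cell receptors. Its hypoxic signal ran from 48.6 in SK-N-SH to 3902 in SK-N-F1 over the neuroblastic lines (median 297), against 13735 in SHEP21N with MYCN overexpression, 15804 in SHEP21N without it, 19752 in SHEP-2, 4329 in ACN and 513 in GI-ME-N. In normoxia the neuroblastic lines spanned 48.7 (SK-N-SH) to 2653 (SK-N-F1) with a median of 233, against 10382 in SHEP21N with MYCN overexpression, 10676 in SHEP21N without it, 14274 in SHEP-2, 3987 in ACN and 368 in GI-ME-N. GI-ME-N again lay inside the neuroblastic range, and the other adherent cultures lay above it as signals. After division by the array median, SK-N-F1 also exceeded ACN in both conditions. At the brightest probeset the difference was -4.13 (SE 1.27, limma adjusted p = 0.0729) in hypoxia and -3.93 (SE 1.16, limma adjusted p = 0.0636) in normoxia. The probeset 214459_x_at of the same gene passed in both, at -3.94 (SE 1.08, limma adjusted p = 0.0488) in hypoxia and -3.70 (SE 0.99, limma adjusted p = 0.0456) in normoxia, and 208812_x_at passed in normoxia at -5.00 (SE 1.34, limma adjusted p = 0.0448).

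HLA-E is a non-classical heavy chain that presents leader peptides of other class I chains to inhibitory receptors of natural killer cells. In hypoxia its signal had a lowest value of 97.7 in SK-N-SH, a median of 385 and 653 at the top in SK-N-F1 among neuroblastic lines, against 2906 in SHEP21N with MYCN overexpression, 3547 in SHEP21N without it, 5147 in SHEP-2, 3541 in ACN and 292 in GI-ME-N. In normoxia the neuroblastic lines spanned 152 (SK-N-SH) to 511 (SK-N-BE2(C)) with a median of 247, against 1219.8 in SHEP21N with MYCN overexpression, 2539 in SHEP21N without it, 4471 in SHEP-2, 3509 in ACN and 187 in GI-ME-N. All adherent cultures but GI-ME-N exceeded every neuroblastic line. The difference passed in hypoxia, at -2.55 (SE 0.70, limma adjusted p = 0.0492), a 5.88-fold lower mean, and was -2.27 (SE 0.65, limma adjusted p = 0.0591) in normoxia. A further probeset of the gene, 200904_at, passed in normoxia at -4.97 (SE 1.18, limma adjusted p = 0.0274), with signals of 4.28 to 23.9 in neuroblastic lines against 749 in SHEP21N with MYCN overexpression, 1092 in SHEP21N without it, 717 in SHEP-2, 1359 in ACN and 4.33 in GI-ME-N. The third, 217456_x_at, passed in hypoxia at -2.60 (SE 0.71, limma adjusted p = 0.0469).

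HLA-F, a further non-classical heavy chain, differed less. In hypoxia the neuroblastic lines spanned 121 (SK-N-SH) to 826 (SK-N-F1) with a median of 460.2, against 1856 in SHEP21N with MYCN overexpression, 1854 in SHEP21N without it, 3316 in SHEP-2, 1845 in ACN and 189 in GI-ME-N, and in normoxia the neuroblastic values were 32.8 to 543 (median 268), against 886 in SHEP21N with MYCN overexpression, 1770.1 in SHEP21N without it, 2373 in SHEP-2, 1699 in ACN and 178 in GI-ME-N. The difference was -1.70 (SE 0.69, limma adjusted p = 0.161) in hypoxia and -2.08 (SE 0.80, limma adjusted p = 0.139) in normoxia, and no HLA-F probeset passed. HLA genes are polymorphic and similar in sequence, and 11 of the 13 HLA probesets carry the suffix x_at, which marks probes that may also match other transcripts. How far this moves values between the lines was not tested.

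B2M, the invariant light chain of every class I molecule, was bright on all arrays. In hypoxia the neuroblastic lines spanned 15269.8 (SK-N-SH) to 25842 (SK-N-F1) with a median of 17321, against 22885 in SHEP21N with MYCN overexpression, 27341 in SHEP21N without it, 51689 in SHEP-2, 41184 in ACN and 20992 in GI-ME-N. In normoxia the neuroblastic lines spanned 15561 (SK-N-SH) to 24971 (LAN-1) with a median of 19107, against 28130.4 in SHEP21N with MYCN overexpression, 36152 in SHEP21N without it, 55610.4 in SHEP-2, 38941 in ACN and 19547 in GI-ME-N. GI-ME-N lay within the neuroblastic range in both conditions, as did SHEP21N with MYCN overexpression in hypoxia. After division by the array median, LAN-1 also exceeded ACN in both conditions, SHEP21N without overexpression in hypoxia and SHEP21N with it in normoxia. The difference was -0.47 (SE 0.38, limma adjusted p = 0.482) in hypoxia and -0.51 (SE 0.37, limma adjusted p = 0.421) in normoxia. A dimmer B2M probeset, 232311_at, pointed the other way in normoxia, at 1.09 (SE 0.61, limma adjusted p = 0.301).

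**Figure D2:**
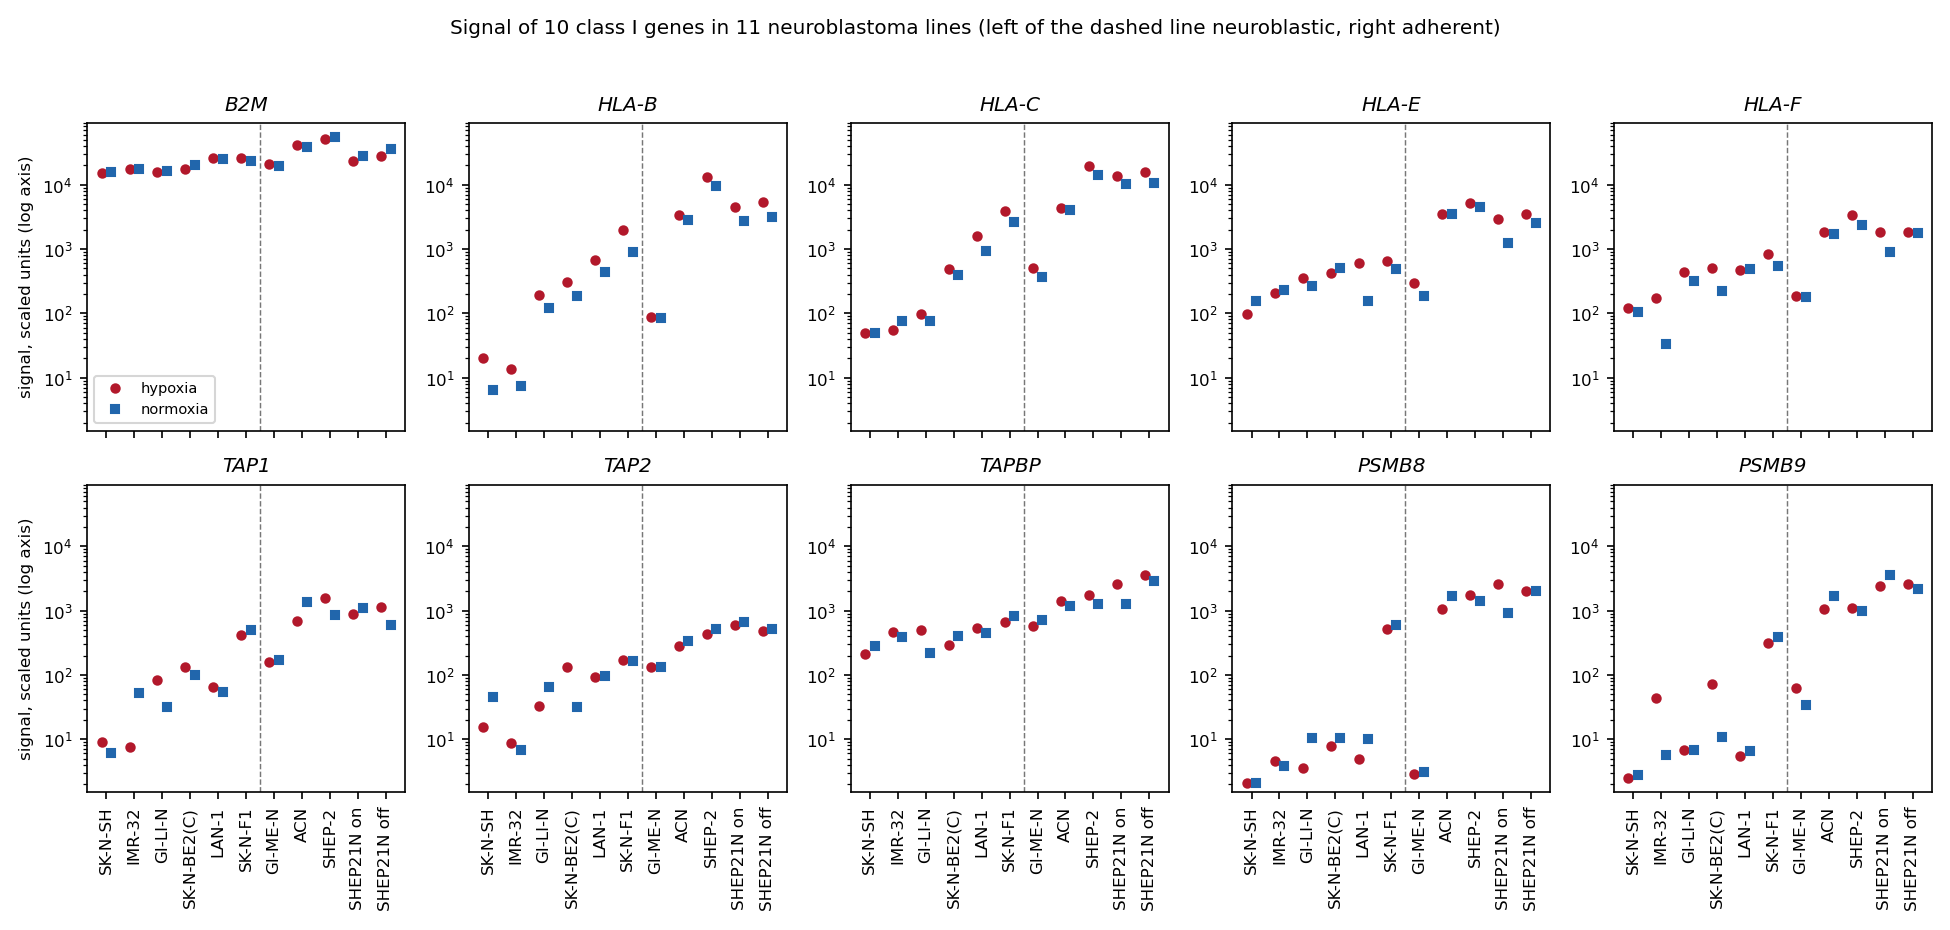
Signal of each member at its brightest probeset on the log axis, by line, with neuroblastic lines left of the dashed line and adherent lines right of it, hypoxia as red circles and normoxia as blue squares. SK-N-F1 is high among the neuroblastic lines and GI-ME-N low among the adherent ones for most members, while B2M varies little.

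TAP1 and TAP2 form the transporter that carries peptides into the endoplasmic reticulum. The hypoxic TAP1 signal ran from 7.65 in IMR-32 to 422 in SK-N-F1 over the neuroblastic lines (median 74.1), against 886 in SHEP21N with MYCN overexpression, 1129.9 in SHEP21N without it, 1551 in SHEP-2, 685 in ACN and 156 in GI-ME-N. In normoxia the neuroblastic lines spanned 6.22 (SK-N-SH) to 499.8 (SK-N-F1) with a median of 53.5, against 1113 in SHEP21N with MYCN overexpression, 589 in SHEP21N without it, 856 in SHEP-2, 1361 in ACN and 169.5 in GI-ME-N. Only SK-N-F1 exceeded an adherent culture, GI-ME-N. After division by the array median 29 of 30 pairs of a neuroblastic and an adherent line ran the same way in each condition. The pairs share lines, and the share of all probesets with such a count was not computed. The difference passed in normoxia, at -3.31 (SE 0.89, limma adjusted p = 0.0459), a 9.90-fold lower mean, and was -3.51 (SE 0.97, limma adjusted p = 0.0504) in hypoxia. For TAP2, hypoxic signals of the neuroblastic lines spanned 8.69 (IMR-32) to 172 (SK-N-F1) with a median of 62.5, against 592 in SHEP21N with MYCN overexpression, 483 in SHEP21N without it, 432 in SHEP-2, 284 in ACN and 133.3 in GI-ME-N. In normoxia its signal had a lowest value of 6.74 in IMR-32, a median of 55.2 and 166 at the top in SK-N-F1, against 655 in SHEP21N with MYCN overexpression, 515 in SHEP21N without it, 511 in SHEP-2, 339.8 in ACN and 133.6 in GI-ME-N. The brightest TAP2 probeset gave -2.67 (SE 0.78, limma adjusted p = 0.0617) in hypoxia and -2.75 (SE 0.76, limma adjusted p = 0.0507) in normoxia. The probeset 204770_at passed in hypoxia at -2.53 (SE 0.55, limma adjusted p = 0.0178). It and 225973_at, both of TAP2, were the 2 of 26 whose neuroblastic lines all lay below all adherent lines in hypoxia, where 1.89% of all probesets did so, and in normoxia 0 of 26 did (1.8%).

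TAPBP encodes tapasin, which bridges the transporter and the empty heavy chain. In hypoxia the neuroblastic lines spanned 213 (SK-N-SH) to 665 (SK-N-F1) with a median of 482, against 2551 in SHEP21N with MYCN overexpression, 3582 in SHEP21N without it, 1736 in SHEP-2, 1389.7 in ACN and 584 in GI-ME-N. In normoxia the neuroblastic lines spanned 220.0 (GI-LI-N) to 809 (SK-N-F1) with a median of 395, against 1285 in SHEP21N with MYCN overexpression, 2899 in SHEP21N without it, 1259.9 in SHEP-2, 1178 in ACN and 702 in GI-ME-N. SK-N-F1 exceeded GI-ME-N in both conditions and, after division by the array median, also ACN and SHEP-2 in normoxia, as LAN-1 exceeded GI-ME-N in hypoxia. At the brightest probeset the difference was -1.78 (SE 0.52, limma adjusted p = 0.0612) in hypoxia and -1.47 (SE 0.49, limma adjusted p = 0.0976) in normoxia, and 210294_at passed in hypoxia at -2.16 (SE 0.51, limma adjusted p = 0.0259). That probeset was dim, below the array median on 19 of 22 arrays, with hypoxic signals of 6.86 to 17.8 in neuroblastic and 26.7 to 129.8 in adherent lines.

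PSMB8 and PSMB9 encode catalytic subunits of the immunoproteasome. At the brightest probesets they carried the largest differences of the 10 members. The hypoxic PSMB8 signal ran from 2.09 in SK-N-SH to 511 in SK-N-F1 over the neuroblastic lines (median 4.71), against 2579 in SHEP21N with MYCN overexpression, 2041 in SHEP21N without it, 1716 in SHEP-2, 1051 in ACN and 2.83 in GI-ME-N. In normoxia the neuroblastic lines spanned 2.09 (SK-N-SH) to 588 (SK-N-F1) with a median of 10.1, against 909 in SHEP21N with MYCN overexpression, 2014 in SHEP21N without it, 1430.3 in SHEP-2, 1683 in ACN and 3.11 in GI-ME-N. Every neuroblastic line but SK-N-F1 read below 11 in both conditions, far under the array medians, and GI-ME-N read as low as they did. The mean difference of -5.48 (SE 1.77, limma adjusted p = 0.0853) in hypoxia and -4.73 (SE 1.68, limma adjusted p = 0.113) in normoxia did not pass. In hypoxia PSMB9 had a lowest value of 2.49 in SK-N-SH, a median of 25.2 and 308 at the top in SK-N-F1 among neuroblastic lines, against 2368 in SHEP21N with MYCN overexpression, 2583 in SHEP21N without it, 1104 in SHEP-2, 1049 in ACN and 62.9 in GI-ME-N. In normoxia the neuroblastic lines spanned 2.82 (SK-N-SH) to 389 (SK-N-F1) with a median of 6.68, against 3616 in SHEP21N with MYCN overexpression, 2134 in SHEP21N without it, 987 in SHEP-2, 1703 in ACN and 34.3 in GI-ME-N. As for TAP1 and the brightest TAP2 probeset, 29 of 30 pairs of lines ran the same way in each condition, a count with no share over all probesets computed. PSMB9 was the only member whose brightest probeset passed in both conditions, at -5.11 (SE 1.22, limma adjusted p = 0.0276) in hypoxia and -5.86 (SE 1.30, limma adjusted p = 0.0208) in normoxia, 34.5-fold and 58.1-fold lower. Part of the size of these ratios rests on signals under 10, and with all signals below 50 set to 50 PSMB9 still passed in both.

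The lines fell in a graded order. The mean of the standardised log2 signals of the 10 members, over both arrays of a line, was lowest in IMR-32 (-1.27) and SK-N-SH (-1.25), and went through GI-LI-N (-0.86), SK-N-BE2(C) (-0.63), GI-ME-N (-0.31), LAN-1 (-0.11), SK-N-F1 (0.45), ACN (0.73), SHEP21N with MYCN overexpression (0.95) and SHEP-2 (1.09) to SHEP21N without it (1.21). Both arrays of a line differed by 0.011 to 0.34 in this mean. The gaps between SK-N-SH and GI-LI-N (0.39) and between LAN-1 and SK-N-F1 (0.56) exceeded that range, and other neighbours did not differ beyond it. GI-ME-N stood among the neuroblastic lines. Over the whole array its median r was 0.793 with neuroblastic lines and 0.793 with other adherent lines in hypoxia, and 0.802 and 0.774 in normoxia, whereas the other adherent lines had medians of 0.734 and 0.725 with neuroblastic lines. It carried mesenchymal markers, with normoxic signals of 6662 for CD44, 27264 for FN1, 34805 for VIM and 2482 for YAP1, and 30.4 for the neuroblastic marker PHOX2A. SK-N-F1, which stood above the other neuroblastic lines, carried 9209 for PHOX2A and 5788 for MYCN, 125 for YAP1 and 11.9 for FN1, and 5197 for CD44. Across the 22 arrays the members correlated with each other at r = 0.55 (B2M with PSMB9) to 0.96 (HLA-B with HLA-F), as a description over arrays that share lines. Pairs without B2M gave a median of 0.86 and pairs with B2M 0.67.

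The choice of lines moved the count of calls. Without GI-ME-N, 15 of 26 probesets passed as lower in hypoxia and 11 in normoxia, where 3.07% and 3.46% of all probesets did. Without SK-N-F1 the counts were 12 and 9 (2.21% and 2.08%). Without SHEP21N with MYCN overexpression, whose normoxic array carried the RNA sign, they were 2 and 0 (1.4% and 1.26%), and without both SHEP21N cultures, an alternative chosen after seeing the data, 0 and 0 (0.765% and 0.797%). Without SHEP21N lacking overexpression they were 1 and 0 (1.22% and 1.2%), and without SK-N-SH, GI-LI-N or SHEP-2 they were 1 and 1. They were 2 and 1 without SK-N-BE2(C), 3 and 1 without ACN, 3 and 2 without IMR-32, and 4 and 2 without LAN-1. The share of all probesets was 1.28% to 2.52% over these 7 omissions. The difference of each member stayed negative at its brightest probeset in all of these.

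**Figure D3:**
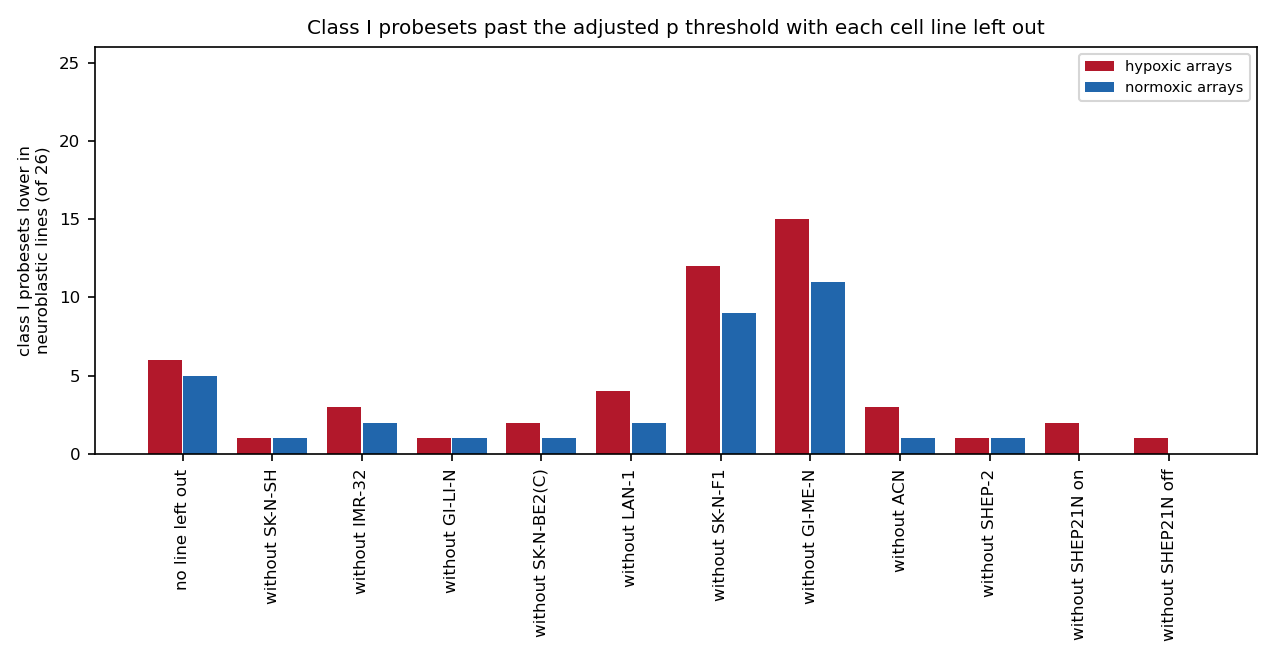
Number of the 26 member probesets lower in neuroblastic lines at a limma adjusted p under 0.05 when each line is left out in turn, in hypoxia and normoxia. The count is highest without GI-ME-N, 15 in hypoxia and 11 in normoxia, and it is 0 in normoxia when either SHEP21N culture is left out.

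No member passed the test of hypoxia against normoxia. Over the 11 lines 0 of 26 probesets passed (0.0476% of all probesets did, 26 in all), and the smallest adjusted p of a member was 0.323 in limma with the line as a block. The median log2 change of the members was 0.25, against -0.02 over all probesets, and at an unadjusted p below 0.05 there were 5 of 26 higher (3.35% of all probesets) and 0 lower. The methods' paired test per probeset also gave 0 of 26 after Benjamini-Hochberg adjustment. The 8 listed hypoxia targets all rose, with a median change of 2.18. All 8 belong to the hypoxia signature that the authors selected from these same lines, so their rise was given in advance. The 5 probesets were 2 of HLA-B and 1 each of HLA-C, HLA-E and HLA-F, and HLA probesets may match one another's transcripts. That of HLA-E, 200904_at, was below the array median on 13 of 22 arrays, and 217456_x_at of the same gene gave -0.13. The smallest p over the members was that of HLA-B, with a log2 change of 0.69 (SE 0.16, limma adjusted p = 0.323), and after division by the array median its signal was higher in 10 of 11 lines, GI-ME-N being the exception.

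In SK-N-F1 the HLA-B signal was 1966 in hypoxia and 911 in normoxia, in LAN-1 668 in hypoxia and 436 in normoxia, and in SK-N-BE2(C) 309 in hypoxia and 184 in normoxia. In GI-LI-N it was 193 in hypoxia and 122 in normoxia, in IMR-32 13.6 in hypoxia and 7.38 in normoxia, and in SK-N-SH 20.1 in hypoxia and 6.49 in normoxia. The last 2 of these changes, though large as ratios, are between dim signals. Among adherent cultures it was 4535 in hypoxia and 2710.3 in normoxia for SHEP21N with MYCN overexpression and 5285 in hypoxia and 3103 in normoxia for SHEP21N without it. It was 13103 in hypoxia and 9409.5 in normoxia for SHEP-2, 3338 in hypoxia and 2815 in normoxia for ACN, and 87.6 in hypoxia and 84.3 in normoxia for GI-ME-N. After scaling, the mean change was 0.89 ± 0.46 (SD, n = 6) in neuroblastic and 0.46 ± 0.45 (SD, n = 5) in adherent lines. The other HLA-B probesets had the reverse order. At 208729_x_at the mean change was 0.31 in neuroblastic and 0.75 in adherent lines, and at 211911_x_at 0.36 and 0.83.

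The other members gave smaller or uneven values. HLA-C was higher in 10 of 11 lines by 0.30 (SE 0.13, limma adjusted p = 0.599) and HLA-F in 9 by 0.57 (SE 0.22, limma adjusted p = 0.552). HLA-E gave 0.36 (SE 0.22), TAPBP 0.18 (SE 0.19), PSMB9 0.41 (SE 0.34), B2M -0.098 (SE 0.10) and PSMB8 -0.21 (SE 0.25). Both transporter subunits were near 0, TAP1 at -0.035 (SE 0.33) and TAP2 at -0.10 (SE 0.25). Single lines moved by more, mostly at dim signals. IMR-32 gave a log2 change of 2.84 for PSMB9, 2.29 for HLA-F and -2.85 for TAP1, and SK-N-BE2(C) gave 2.58 for PSMB9 and 1.96 for TAP2. HLA-E gave 1.90 in LAN-1 and 1.47 in SHEP21N with MYCN overexpression, the culture with the doubted normoxic array. Within neuroblastic lines 0 of 26 probesets passed (0.0476% of all did), with 3 higher at an unadjusted p below 0.05 (2.64% of all) and a smallest adjusted p of 0.447 in limma. Within adherent lines 0 of 26 passed (0% of all did), with a smallest adjusted p of 0.518 in limma. At an unadjusted p below 0.05 there 3 were higher (4.09% of all probesets), and 0 without SHEP21N with MYCN overexpression. The effect did not differ between the line sets for any member past the threshold (0 of 26, and 0% of all probesets), the smallest adjusted p being 0.912 in limma, and at an unadjusted p below 0.05 there was 1 of 26, TAPBP 1555565_s_at at -0.99, against 2.64% of all probesets in that direction. That probeset read 406 in hypoxia and 94.7 in normoxia in SHEP21N with MYCN overexpression, and without this culture the count was 0.

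**Figure D4:**
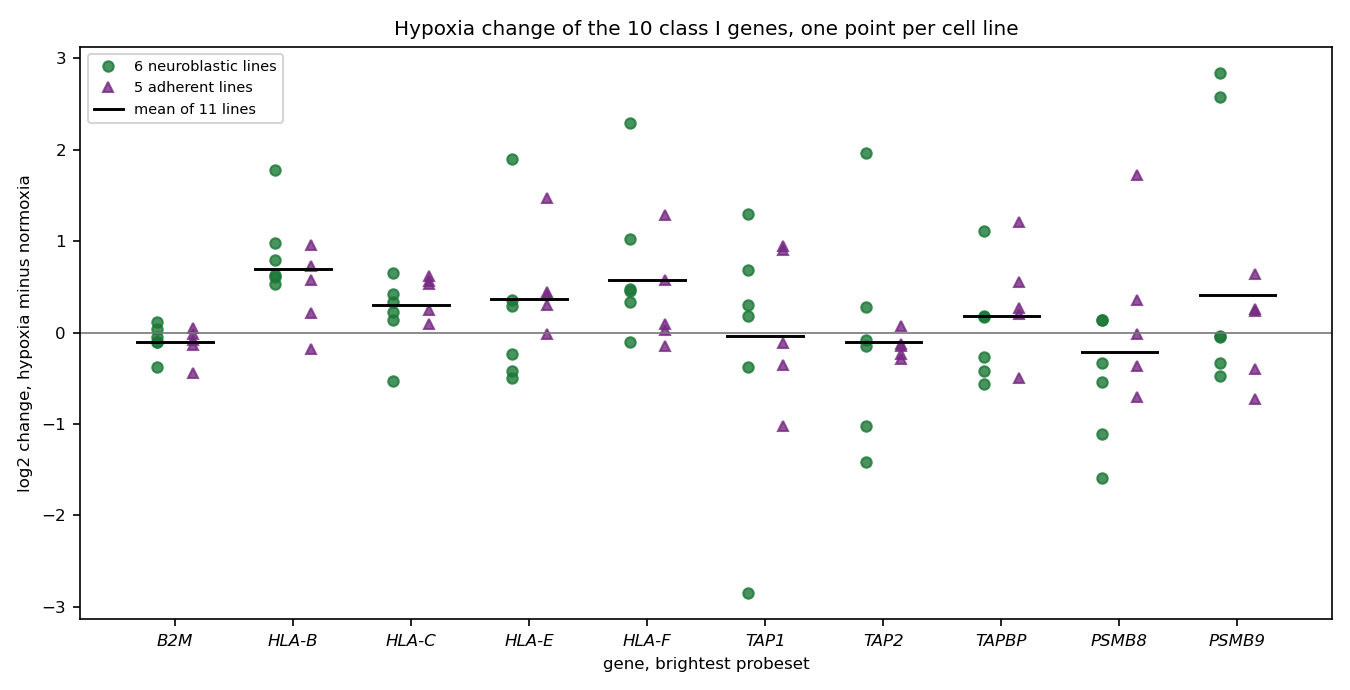
Log2 change in signal, hypoxia minus normoxia, for each member in each line, with neuroblastic lines as green circles, adherent lines as purple triangles and the mean of the 11 lines as a black bar. The HLA-B points lie above 0 in 10 of 11 lines, and the widest spread is at PSMB9 and TAP1 (SD 1.20 and 1.16 over the lines), where IMR-32 lies far out.

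Between the SHEP21N cultures the members differed little in hypoxia. The log2 difference, with minus without MYCN overexpression, was -0.45 for TAPBP to 0.37 for PSMB8 there. In normoxia it was -1.39 for TAPBP (1285 with against 2899 without), -1.36 for PSMB8 (909 against 2014), -1.27 for HLA-E (1219.8 against 2539) and -1.22 for HLA-F (886 against 1770.1), and 0.70 for TAP1 and 0.54 for PSMB9. These are single arrays with no test, and the normoxic array with overexpression is the one with the high 3'/5' ratios. The normoxic array without overexpression had an ACTB ratio of 5.05, the highest of the other arrays. The part of RNA quality in the values was not tested.

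Most other genes of the class I pathway did not pass. Of 16 further class I pathway genes 14 were measured, and 1 was lower in the neuroblastic lines in hypoxia and 1 in normoxia (2.26% and 2.21% of all probesets were). Both times this was ERAP2, an aminopeptidase that trims peptides to length, at -5.29 (SE 1.03, adjusted p = 0.0103) in hypoxia and -5.81 (SE 1.22, adjusted p = 0.0160) in normoxia, with normoxic signals of 1.84 to 275 (median 7.46) in the neuroblastic lines and 139 to 2092 (median 1346) in the adherent lines. In normoxia ERAP1, its partner enzyme, was at -1.83 (SE 0.57, limma adjusted p = 0.0776). The proteasome activator PSME1 was at -1.36 (SE 0.57, limma adjusted p = 0.168). These genes were named for their small p, while the 14 spanned -5.81 to 1.77 in normoxia with a median of 0.04. At an unadjusted p below 0.05 in limma 3 were lower and 1 higher there (9.93% and 13.75% of all probesets). Of 28 class I regulators 26 were measured, 2 lower in hypoxia and 3 in normoxia (2.26% and 2.21% of all probesets), with a normoxic median of -0.14. In hypoxia these were JAK1 at -1.57 (SE 0.41, adjusted p = 0.0392) and NFKB1, a subunit of the inflammatory factor NF-κB, at -1.79 (SE 0.42, adjusted p = 0.0247), which was named after its values were seen, while NLRC5 was at -2.38 (SE 0.66, adjusted p = 0.0515) and IRF1 at -0.95 (SE 0.45, adjusted p = 0.222). The 3 in normoxia were NLRC5, the class I transactivator, at -2.81 (SE 0.71, adjusted p = 0.0368) with signals of 3.80 to 78.9 (median 37.1) in the neuroblastic lines and 91.9 to 473 (median 262) in the adherent lines, the interferon-regulated factor IRF1 at -1.44 (SE 0.39, adjusted p = 0.0460) with 95.1 to 198 (median 140.3) in the neuroblastic lines and 286 to 757 (median 413) in the adherent lines, and the cytokine-receptor kinase JAK1 at -1.83 (SE 0.42, adjusted p = 0.0233) with 794 to 1979 (median 1205) in the neuroblastic lines and 3475 to 8601 (median 5166) in the adherent lines. The signal ranges of all 3 did not overlap between the line sets in normoxia, but the 3 were named for their small p in that same comparison. After division by the array median, 1.8% of all probesets had every neuroblastic line below every adherent line in normoxia. For NLRC5, SK-N-F1 read 38.7 and GI-ME-N 91.9, and for IRF1 198 and 286. Among 27 interferon-stimulated genes 9 were lower in hypoxia and 10 in normoxia, where 2.26% and 2.21% of all probesets were, with a normoxic median of -2.11. The smallest adjusted p were those of IFITM3 at -6.79 (SE 0.74, adjusted p = 0.000239) and IFITM2 at -5.78 (SE 0.86, adjusted p = 0.00207), which restrict virus entry, and the nuclear-body protein SP100 at -6.10 (SE 0.77, adjusted p = 0.000693). Their signals were 15.2 to 176 (median 57.6) in the neuroblastic lines and 1751 to 14604 (median 6985) in the adherent lines for IFITM3, and 6.98 to 141 (median 13.8) in the neuroblastic lines and 909.6 to 2102 (median 1905) in the adherent lines for SP100. Of 9 class II genes 0 were lower in hypoxia and 1 in normoxia (2.26% and 2.21% of all probesets). The 1 was the peptide exchanger subunit HLA-DMA at -3.26 (SE 0.84, adjusted p = 0.0399). The class II chain HLA-DPA1 was at -3.12 (SE 1.41, adjusted p = 0.202) and the invariant chain CD74 at -1.58 (SE 0.98, adjusted p = 0.350). The lists hold genes that share regulators with the members, and no test of a list as a whole was made. The p-values are from limma over all probesets.

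The genes whose brightest probeset followed the members' mean most closely over the 22 arrays were PDCD6P1 (r = 0.975), GABARAPL1 (0.940), MAGEA12 (0.925), SFT2D1 (0.918), MAGEA1 (0.916), HOXB2 (0.915), NBPF1 (0.911), ARPC1B (0.909), PLOD3 (0.903) and MAGEA6 (0.899), out of 12509 genes with a mean signal of at least 100. The likeness is a Pearson correlation with the mean of the members' standardised log2 signals, and it is a description over arrays that come in pairs from 11 lines. MAGEA12, a cancer-testis antigen, had signals of 2.59 to 4163 on neuroblastic and 94.0 to 13995 on adherent arrays, with 4163 in SK-N-F1 and 94.0 in GI-ME-N in normoxia.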

How the data were processed

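Per the labels and methods, the authors hybridised RNA of 11 neuroblastoma cultures to Affymetrix arrays and deposited MAS5 signals, an intensity per probeset on a linear scale, with each array scaled to an average of 500. The MAS5 version is not given in the sources used here. All value columns matched a sample. Each intensity was divided by its array's median and log2 was taken, with no filter on dim probesets. Differences were fitted with limma 3.58.1 in R 4.3.3 (lmFit, eBayes) over all 54675 probesets, with Benjamini-Hochberg adjustment and a threshold of 0.05. Line sets were compared on the 11 hypoxic and the 11 normoxic arrays apart, and hypoxia against normoxia with the line as a block, since each line gave both arrays. Files were handled in Python 3.11.15 with pandas 2.3.3 and numpy 2.4.6, and plots drawn with matplotlib 3.10.9. Fits were checked on simulated data.

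Gene names came from the platform annotation, in which 41097 probesets name 1 gene, 1801 several and 11777 none, and 41043 matched a RefSeq gene ID. The text names all members, the 3 genes of each list with the smallest normoxic adjusted p and the 10 genes most like the members. The line sets rest on the cell line label and general knowledge of the lines, except that SK-N-SH was placed by its MYCN signal on these arrays. Members, line sets and lists were chosen with earlier results of these data known. The number of arrays limits the precision. Alternatives were other scalings, a floor, a filter on dim probesets, gene-level tables, averaged or omitted lines, no replicate block and a paired t-test per probeset. That t-test was run over all probesets, without the fold-change filter of the methods, which name a t-test but state no pairing.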

Additional observations from a re-analysis of the deposited data

Results flagged for a closer look

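In 9 of 40 groups tested (10 members in 2 line sets and 2 conditions), 1 line lay far from the others by Dixon's criterion, which chance alone reaches in about 1 of 20 groups. The groups share lines and the members correlate, so they are not independent and the count cannot be weighed against that share. SK-N-F1 was the far highest neuroblastic line for PSMB8, at 511 in hypoxia and 588 in normoxia, and for PSMB9 in normoxia, at 389. GI-ME-N was the far lowest adherent culture for PSMB8, at 2.83 in hypoxia and 3.11 in normoxia, for HLA-B in normoxia, at 84.3, and in hypoxia for HLA-E, at 292, and HLA-F, at 189. SHEP21N without MYCN overexpression was the far highest adherent culture for TAPBP in normoxia, at 2899.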

How the results depend on the processing

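For the line sets, values are numbers of the 26 member probesets, then of the 10 genes at their brightest probeset, lower in neuroblastic lines by limma at an adjusted p under 0.05. They were 6 and 2 in hypoxia, and 5 and 2 in normoxia, where 2.26% and 2.21% of all probesets were lower. With signals as deposited they were 7 and 3 in hypoxia, and 8 and 4 in normoxia (2.99% and 3.01%). Quantile normalization gave 9 and 5, and 7 and 4 (2.54% and 2.39%). Setting signals below 50 to 50 gave 12 and 6, and 10 and 6 (2.5% and 2.27%). Keeping only probesets with a mean signal of at least 100 gave 11 and 6, and 10 and 6 (4.5% and 4.04% of those kept). A gene table of brightest probesets gave 3 genes in each condition (3.34% and 3.27% of all genes). One of gene means gave 5 and 3 (3.52% and 3.47%). At an adjusted p under 0.01 there were 0 throughout (0.583% and 0.534% of all probesets). The mean of both arrays of each line gave 13 and 6 (4.07%). Without SK-N-SH they were 1 and 0 in hypoxia, and 1 and 1 in normoxia. Averaging SK-N-SH with IMR-32 and GI-LI-N gave 0 throughout (14 probesets lower at an unadjusted p below 0.05 in hypoxia, 11 in normoxia), averaging the SHEP lines 0 (11 and 11) and both averagings 0 (3 and 5). Without SHEP21N with MYCN overexpression they were 2 and 0, and 0 and 0 (15 and 15), and without both SHEP21N cultures, chosen after seeing the data, 0 throughout (10 and 9). Leaving out each line in turn gave 1 to 15 probesets and 0 to 8 genes in hypoxia, and 0 to 11 and 0 to 7 in normoxia. The cause of each shift was not tested. The median difference over all probesets was -0.20 in hypoxia and -0.24 in normoxia as deposited, against 0.02 and 0.04 after scaling to the median. The adjusted p of PSMB9 ranged over the alternatives from 0.00898 to 0.321 in hypoxia and from 0.00212 to 0.317 in normoxia, that of HLA-E in hypoxia from 0.00569 to 0.446, and that of TAP1 in normoxia from 0.00839 to 0.354. The difference kept its direction in all alternatives but 1, B2M in normoxia at 0.11 as the mean of its probesets.

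For hypoxia against normoxia no member passed under any alternative. Signs turned for small changes: with the floor of 50, TAP1 gave 0.10, PSMB8 0.053 and PSMB9 -0.063. TAP2 gave 0.027 without SK-N-SH. When SK-N-SH was averaged with IMR-32 and GI-LI-N, TAP1 gave 0.021 and TAP2 0.032. With both averagings TAP2 gave 0.061 and TAPBP -0.011. Leaving out each line in turn gave -0.17 to 0.25 for TAP1 and -0.31 to 0.027 for TAP2. With no replicate block, so without pairing the arrays of a line, 0 of 26 member probesets passed (9 of all 54675) and HLA-B had a change of 0.69 with a limma adjusted p of 1. In the paired t-test over all probesets 0 of 26 passed after Benjamini-Hochberg adjustment, with an adjusted p of 0.121 for HLA-B. Precision is limited by the number of arrays and by dim signals of PSMB8, PSMB9, TAP1 and TAP2 in neuroblastic lines.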

Other observations

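ACN stood above every other culture in the MHC class II genes HLA-DPA1, HLA-DMA and HLA-DRA. Signals by line of the other class II genes are not given here. Its HLA-DPA1 signal was 20553 in hypoxia and 19667 in normoxia, and it read 3369 and 4009.9 for HLA-DMA and 3926 and 3793 for HLA-DRA on the same arrays. The medians over the adherent cultures in normoxia were 88.0 for HLA-DPA1 and 260.4 for HLA-DMA. SHEP-2 came next for HLA-DPA1, at 742 in hypoxia and 589 in normoxia. For HLA-DMA, SHEP-2 and both SHEP21N cultures read 248 to 450 in normoxia. HLA-DPA1 ranged from 5.66 to 114 over the neuroblastic lines in normoxia.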
